A study of Mus musculus with 6 samples.

Results

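Genes of cholesterol and fatty acid synthesis and uptake were read in mouse embryonic fibroblasts, connective-tissue cells cultured from embryos, with and without the transcription factor Klf4. The 45 genes were chosen by name, as enzymes of sterol synthesis in pathway order, the SREBP regulators, lipoprotein receptors, sterol transport and efflux genes and fatty acid enzymes, and every probe carrying one of these symbols was taken. Of the 34508 gene symbols on the array, 43 of the 45 members were found, with 86 probes. Hmgcs1 and Fdft1 had no probe under their symbols and are not analysed here. The 2 groups were Klf4 +/+ cells (wild type) and Klf4 -/- cells (Klf4-null), 3 samples each, all of the C57Bl/6 strain, with a labelled age of 13 days, grown in DMEM with fetal bovine serum. Replicates carry numbers but no embryo or culture is named for them, so p-values here measure the spread among the arrays of a group, which may be technical. How the Klf4 allele was disrupted is not given in the sources used here. Each sample was hybridised to 1 Illumina bead array, and the values are normalized intensities.

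Cholesterol is made from acetyl-CoA through mevalonate, isoprenoid diphosphates, squalene and lanosterol. The transcription factors Srebf1 and Srebf2 (the SREBPs) are held in the endoplasmic reticulum by Scap and the Insig proteins while sterols are plentiful. When sterols run low they are released to the nucleus and activate genes of sterol synthesis, lipoprotein uptake and fatty acid synthesis together, usually with the CCAAT-binding factor NF-Y bound beside them. Cells in serum-containing medium can also take up lipoprotein cholesterol, and excess sterol activates the liver X receptors Nr1h2 and Nr1h3, which raise the efflux pumps Abca1 and Abcg1.

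RefSeq promoter windows (GRCm38.p6, 250 bases before to 50 after the start) were given for 36 of the members. The CCAAT box (CCAAT on either strand) was in the windows of 25 of the 36 members and of 41.1% of all genes in the table. By list, 14 of 15 sterol synthesis genes, 4 of 5 SREBP control genes and 5 of 9 fatty acid genes had it. So did 1 of 3 lipoprotein receptors and 1 of 4 sterol transport and efflux genes, lists too small to be set apart from all genes. It was in 10 of 11 members that fell, 6 of 8 that rose and 6 of 12 that did not pass. The sterol regulatory element core TCACNCCAC was found in 1 member, Hmgcs1, and in 1.44% of all genes. The E-box CACGTG was in 7 of the 36 members and in 8.09% of all genes, and the Kruppel-like factor motif GGGNGTGG was in 10 of 36 and in 19.7%. All 4 motifs were searched on both strands, and a match is a description of these letters only. The windows below belong to the enzyme that fell most (Nsdhl), another that fell (Cyp51), 2 that rose (Mvk and Ebp) and the receptor that rose most (Vldlr, the one of its 2 windows that holds a match), written 5′ to 3′ along each gene with CCAAT boxes in capitals (ATTGG where the box lies on the opposite strand).
Nsdhl promoter, chrX:72918271-72918570, plus strand: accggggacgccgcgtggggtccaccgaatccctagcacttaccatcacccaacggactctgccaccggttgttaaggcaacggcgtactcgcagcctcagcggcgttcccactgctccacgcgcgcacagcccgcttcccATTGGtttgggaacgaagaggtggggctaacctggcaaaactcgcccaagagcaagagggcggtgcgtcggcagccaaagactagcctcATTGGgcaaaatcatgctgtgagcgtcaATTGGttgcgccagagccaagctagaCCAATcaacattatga
Cyp51 promoter, chr5:4104648-4104947, minus strand: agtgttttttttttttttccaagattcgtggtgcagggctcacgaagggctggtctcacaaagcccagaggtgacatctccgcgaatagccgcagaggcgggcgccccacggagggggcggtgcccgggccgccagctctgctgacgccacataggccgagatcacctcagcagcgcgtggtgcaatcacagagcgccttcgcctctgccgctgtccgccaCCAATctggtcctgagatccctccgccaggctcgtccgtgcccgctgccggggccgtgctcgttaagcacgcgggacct
Mvk promoter, chr5:114444019-114444318, plus strand: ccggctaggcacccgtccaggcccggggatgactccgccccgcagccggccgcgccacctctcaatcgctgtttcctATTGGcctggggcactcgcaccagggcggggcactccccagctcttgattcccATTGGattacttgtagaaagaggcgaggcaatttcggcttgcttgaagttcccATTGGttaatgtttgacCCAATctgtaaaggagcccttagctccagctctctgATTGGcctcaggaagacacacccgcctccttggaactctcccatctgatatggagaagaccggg
Ebp promoter, chrX:8193463-8193762, minus strand: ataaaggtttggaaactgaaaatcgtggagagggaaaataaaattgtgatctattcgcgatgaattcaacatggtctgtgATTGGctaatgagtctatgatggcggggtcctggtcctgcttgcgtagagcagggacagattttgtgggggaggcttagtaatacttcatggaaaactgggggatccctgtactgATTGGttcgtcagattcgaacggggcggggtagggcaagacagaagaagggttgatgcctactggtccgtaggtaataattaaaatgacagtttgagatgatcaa
Vldlr promoter, chr19:27216770-27217069, plus strand: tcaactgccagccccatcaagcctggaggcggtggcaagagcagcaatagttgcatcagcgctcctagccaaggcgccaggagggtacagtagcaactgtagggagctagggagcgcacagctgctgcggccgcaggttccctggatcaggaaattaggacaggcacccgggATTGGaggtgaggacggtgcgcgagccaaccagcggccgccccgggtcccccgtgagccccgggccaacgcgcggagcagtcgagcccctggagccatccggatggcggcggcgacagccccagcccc
The Nsdhl window held 4 CCAAT boxes, the Mvk window 5, the Ebp window 2, and the Cyp51 and Vldlr windows 1 each. The window of Lrp1, the other lipoprotein receptor that rose, held none. The window of Acat2, which is not printed, held none either, although Acat2 fell more than Cyp51 (log2 fold change -0.88 against -0.83).

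On each array a background floor was estimated from the values themselves, at intensities of 54.0 to 54.2, and testing required 3 or more of the 6 arrays to exceed it. This kept 21825 of 46621 probes and 17006 genes. All 10 fibroblast markers were above the floor on every wild-type array and 9 on every null array, with 3 higher, 3 lower and summed intensities of 39412 to 41713 and 45155 to 48219. Among them Vim read 20725 ± 302 (SD, n = 3) in wild-type and 20679 ± 188 in null cells, whereas the fibroblast surface marker Thy1 fell from 3307 ± 299 to 49.2 ± 0.505, below the floor. This Thy1 probe entered the test through the wild-type arrays alone, so a difference was built into its selection. The other Thy1 probe was at background on every array. The matrix genes Dcn (133 ± 6.80 to 2843 ± 78.6), Col3a1 (141 ± 10.4 to 797 ± 72.2) and Col1a1 (5313 ± 1400.5 to 10926 ± 1196) rose, and Pdgfra (988 ± 30.5 to 551 ± 67.1) and Col1a2 (169 ± 6.13 to 135 ± 19.02) fell. The part of these differences in the members' values was not tested. Of 7 adipocyte markers with a probe, 1 was above the floor on every wild-type array (Adipoq, at 60.0 ± 2.84) and 0 on every null array, and their summed intensity was 336 to 346 in wild-type and 325 to 352 in null cells. Of 5 epithelial markers, Krt14 was above the floor on each wild-type array (143 ± 17.5) and below it at 41.1 ± 1.29 in null cells. Its probe also entered the test through the wild-type arrays alone. The summed level of the epithelial list, Krt14 included, was 330 to 358 against 244 to 253. The other epithelial markers did not share the fall of Krt14. Krt8 (46.0 and 50.7), Krt18 (51.9 and 54.5) and Krt5 (41.3 and 44.0) were too dim to be tested, and Cdh1 (57.4 and 56.4 on its brighter probe) did not pass. Endothelial markers summed to 398 to 401 and 381 to 400, blood cell markers to 543 to 570 and 520 to 555, and hepatocyte markers to 418 to 454 and 431 to 463. Fewer cells of a type and less RNA per cell cannot be told apart in these samples. Of the 3 probes of the disrupted gene Klf4, 2 fell to background in null cells (from 99.04 ± 3.61 to 43.4 ± 3.55 and from 69.1 ± 7.82 to 43.5 ± 2.05) and the brightest rose (from 426 ± 60.03 to 715 ± 19.2). The positions of these probes in the gene are not given in the sources used here.

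Of the 43 members with a probe, 39 had one above the floor and were tested. Srebf1, Abca1, Nr1h3 and Acsl3 were at background on every array of both groups. Read by its brightest tested probe, 9 of the 39 rose, 11 fell and 19 did not pass (adjusted p under 0.05 over all probes). Across all 17006 genes tested, 19.3% rose and 20.3% fell, so the shares among the members (23.1% and 28.2%) were near those of the array, on which 38.9% of probes changed. The median log2 fold change, Klf4-null minus wild type, was 0.04 over the members and -0.02 over all genes. Changes of at least 2-fold were called for 3 members, Vldlr, Nsdhl and Mvk, and for 6.95% of all genes. The groups of members differed among themselves. Of 16 sterol synthesis enzymes tested, 12 changed, against 4 of 11 fatty acid enzymes, 1 of 4 SREBP control genes, 2 of 3 lipoprotein receptors and 1 of 5 transport and efflux genes. The difference between these groups was not tested.

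The early sterol enzymes moved in both directions. Acat2, the cytosolic thiolase that joins 2 acetyl-CoA units, gave intensities of 3986, 3437 and 4127 on the wild-type arrays and 2169, 2057 and 2040 on the null arrays. The groups were far apart, and Acat2 fell 1.84-fold (log2 fold change -0.88, SE 0.09, adjusted p = 1.9e-06). Mvk, the mevalonate kinase, read 159, 194 and 160 in wild-type cells against 288, 377 and 372 in null cells. Every null array lay above every wild-type array, and Mvk rose 2.01-fold (1.01, SE 0.11, adjusted p = 6.6e-06). The next 2 enzymes of the same branch went the other way. Pmvk, the phosphomevalonate kinase, fell 1.27-fold from 398 ± 51.4 to 311 ± 4.83 (adjusted p = 0.0096). Mvd, which decarboxylates mevalonate diphosphate, fell 1.41-fold from 514 ± 24.7 to 363 ± 5.23 (adjusted p = 0.00012). Consecutive kinases of the mevalonate branch thus differed in direction, with Mvk higher and Pmvk lower in null cells.

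In the isoprenoid and squalene steps, Sqle was the only enzyme whose brightest probe passed the test. Idi1, the isopentenyl diphosphate isomerase, averaged 127 ± 3.45 against 125 ± 6.43 (difference of -0.03 on the log2 scale, adjusted p = 0.836). The brighter probe of Fdps, the farnesyl diphosphate synthase, overlapped between groups (10603 ± 616 and 9788 ± 792, adjusted p = 0.337), while its dimmer probe fell 1.26-fold from 475 ± 16.2 to 379 ± 49.2 (adjusted p = 0.014). Sqle, the squalene epoxidase and a rate-limiting enzyme of the late pathway, read 4100, 3658 and 4912 in wild-type cells against 7058, 6014 and 5490 in null cells. All null arrays were above all wild-type arrays. Sqle rose 1.47-fold (0.55, SE 0.12, adjusted p = 0.0016), and its dimmer probe rose 1.43-fold with groups that overlapped. Lss, the lanosterol synthase, gave 1868 ± 362 and 1496 ± 243 and did not pass (-0.32, SE 0.13, adjusted p = 0.0812). It did pass without wild-type replicate 2 (-0.42, adjusted p = 0.031) and without null replicate 1 (-0.44, adjusted p = 0.015).

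Of the 5 enzymes that follow lanosterol, Cyp51, Tm7sf2, Nsdhl and Hsd17b7 fell on their brightest probes and Sc4mol did not pass. Cyp51, the lanosterol demethylase, read 3626, 3820 and 4043 in wild-type cells against 1935, 2243 and 2290 in null cells, without overlap. The fall was 1.78-fold (-0.83, SE 0.09, adjusted p = 3.7e-06), and the second Cyp51 probe gave -0.85. Tm7sf2, a sterol reductase of the next step, fell 1.56-fold, from 328 ± 57.4 to 208 ± 16.2, and its other probe fell 1.46-fold. The following removal of methyl groups takes 3 enzymes, and they did not move by the same amount. Sc4mol (now Msmo1), the methylsterol oxidase, read 6819 ± 624 and 7527 ± 707 and did not pass (0.14, SE 0.09, adjusted p = 0.276). Nsdhl, the sterol dehydrogenase that acts after it, read 6251, 6561 and 6323 in wild-type cells against 3317, 2821 and 2927 in null cells. It fell 2.12-fold (-1.08, SE 0.08, adjusted p = 1.5e-07), and its other 2 probes fell 2.29-fold and 2.20-fold, so all 3 gave one size of change. Hsd17b7, the ketoreductase of the same complex of reactions, fell 1.23-fold on its brighter probe (1470 ± 31.7 to 1194 ± 50.1, adjusted p = 0.0059), while its dimmer probe gave 0.09 (adjusted p = 0.486).

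Of the last 3 enzymes, 2 rose and 1 fell. Ebp, the sterol isomerase, read 756, 715 and 698 in wild-type cells against 1125, 1158 and 1165 in null cells, and rose 1.59-fold (log2 fold change 0.67, SE 0.08, adjusted p = 7.2e-06). Sc5d, the sterol desaturase, fell 1.27-fold from 207 ± 6.81 to 164 ± 14.2 (adjusted p = 0.0053). Dhcr7, the reductase that completes cholesterol, read 214 ± 27.7 and 264 ± 15.7, a rise of 1.24-fold (0.31, SE 0.10, adjusted p = 0.022). Dhcr7 did not pass without wild-type replicate 1 (adjusted p = 0.051), wild-type replicate 2 (0.098) or null replicate 1 (0.077). Nsdhl and Ebp lie on the X chromosome and changed in opposite directions. On these arrays the X-inactivation transcript Xist rose from 70.2 ± 4.29 to 260.03 ± 24.2 on 1 of its 2 probes, the other being at background. The 4 probes of the Y-linked genes Ddx3y and Eif2s3y were at background on every array of both groups, and the brightest of 3 probes of Y-linked Uty gave 80.1 ± 1.29 and 78.0 ± 6.05 (log2 fold change -0.04, adjusted p = 0.747). The part of sex in the values of X-linked genes was not tested. Over the 16 enzymes tested, 4 rose (25%) and 8 fell (50%), beside 19.3% and 20.3% of all genes. Their median log2 fold change was -0.31, against -0.02 over all genes. In the plot of sterol enzymes in pathway order, Pmvk and Mvd fell next to each other, as did Cyp51 and Tm7sf2, and Nsdhl and Hsd17b7, while Mvk, Sqle, Ebp and Dhcr7 rose.

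**Figure D1:**
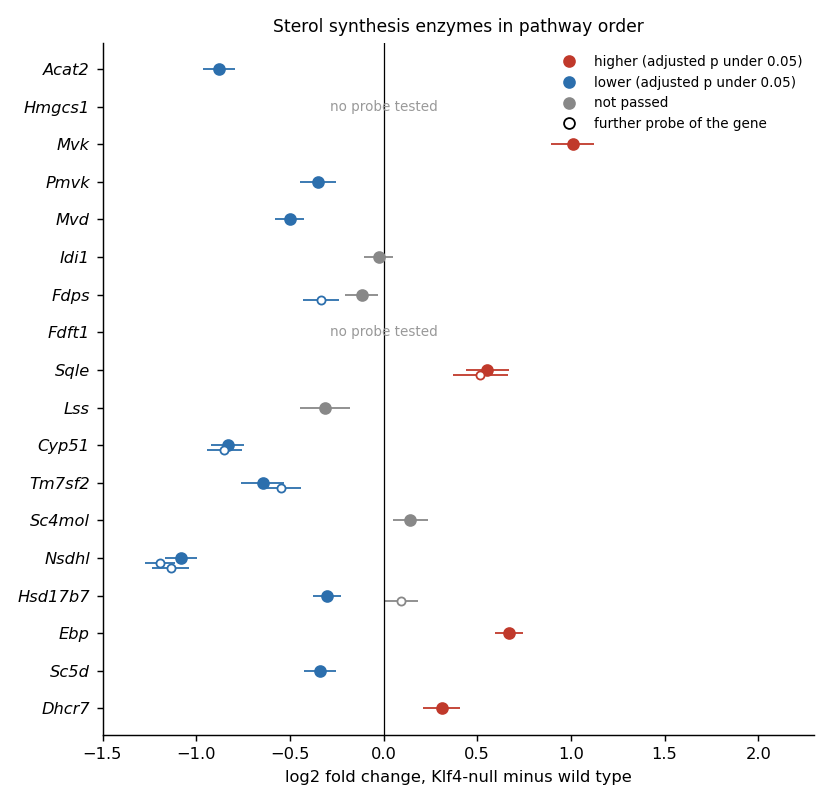
Log2 fold change (Klf4-null minus wild type) of every tested probe of the sterol synthesis enzymes, from the first step at the top to the last at the bottom; bars are the standard error of the fit, n = 3 arrays per group. Filled points are the brightest probe of a gene. Acat2, Cyp51 and Nsdhl stand furthest to the left (-0.88, -0.83 and -1.08) and Mvk furthest to the right (1.01).

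Of the 4 regulators tested, 3 did not pass on their brightest probe, and the probes of the other one, Insig2, disagreed. Srebf2, the SREBP that mainly drives sterol genes, read 1353 ± 160 and 1563 ± 48.3 on its brightest probe (log2 fold change 0.21, SE 0.09, adjusted p = 0.0864). This probe passed without wild-type replicate 1 (0.30, adjusted p = 0.026). Its other probes gave 0.28 (adjusted p = 0.011) and 0.19 (adjusted p = 0.0687), so all 3 were higher in null cells and 1 passed. Scap, the SREBP escort protein, gave 505 ± 36.8 and 482 ± 27.1 (adjusted p = 0.616). Insig1, which retains the SREBPs and is itself an SREBP target, read 126, 141 and 148 against 177, 158 and 147 (0.22, SE 0.09, adjusted p = 0.0827), and its other tested probe also gave 0.22. The 2 tested probes of Insig2, the other retention protein, moved in opposite directions. The marginally brighter one fell 1.18-fold, from 284, 317 and 286 to 261, 238 and 254 (adjusted p = 0.034). The other rose 1.84-fold, from 197, 174 and 173 to 332, 333 and 332 (0.88, SE 0.08, adjusted p = 8.7e-07). The fall did not pass without wild-type replicate 2 (adjusted p = 0.12), null replicate 2 (0.15) or null replicate 3 (0.069), nor with a replicate block (0.064), so Insig2 has no single direction here.

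The lipoprotein receptors held the largest difference among the members. Vldlr, the very low density lipoprotein receptor, read 43.4, 51.9 and 42.9 in wild-type cells against 1201, 1071 and 1032 in null cells. It was above the floor on no wild-type array and on every null array, so the rise was 20.3-fold or more, taking the floor for wild type (4.58 on the log2 scale as fitted, SE 0.10, adjusted p = 1.4e-13). A further probe rose from 42.1, 44.4 and 45.7 to 494, 542 and 504, at least 9.48-fold (adjusted p = 2.5e-13). Both entered the test through the null arrays alone, so a difference was built into their selection. The other 4 of its 6 probes were at background on every array except for 1 wild-type value, and the positions of the probes in its transcripts are not given in the sources used here. Lrp1, a large endocytic receptor that binds apolipoprotein E and many other ligands, read 465, 533 and 418 in wild-type cells against 619, 768 and 733 in null cells, with no overlap (log2 fold change 0.58, SE 0.11, adjusted p = 0.00052). Lrp8, the apolipoprotein E receptor that resembles Vldlr, gave 1014 ± 78.9 and 1016 ± 58.4 on its brightest probe (0.00, SE 0.09, adjusted p = 0.979). Its other 4 probes gave -0.25 to -0.18 and did not pass either, 1 of them with an unadjusted p under 0.05.

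**Figure D2:**
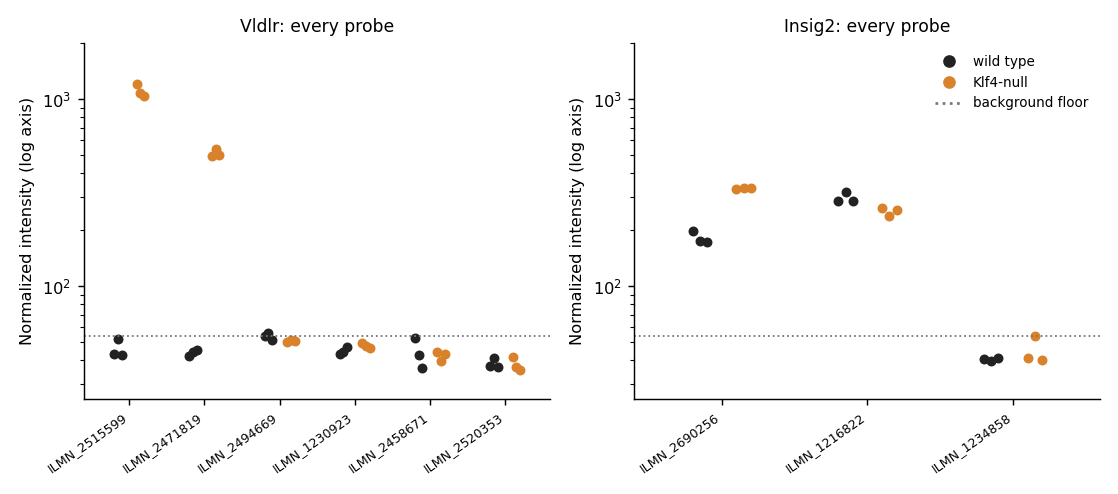
Normalized intensity (log axis) of every probe of Vldlr and Insig2 on each of the 6 arrays, with the background floor as a dotted line. The 2 tested Vldlr probes lie below the floor in wild type and at 494 to 1201 in null cells, the other 4 lie near the floor in both groups, and the tested Insig2 probes move in opposite directions.

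Sterol transport genes changed at 1 of 5 members tested, beside 39.6% of all genes tested. Npc2, the lysosomal protein that hands cholesterol to Npc1, read 1854, 1861 and 1770 in wild-type cells against 1167, 1294 and 1248 in null cells, and fell 1.48-fold (log2 fold change -0.57, SE 0.08, adjusted p = 4.7e-05). Its partner Npc1 gave 831 ± 44.6 and 911 ± 122 on the brightest of 4 tested probes (adjusted p = 0.385), and the other 3 gave -0.24 to 0.23 without passing. Stard4, a cytosolic sterol carrier, gave 2463 ± 193 and 2555 ± 270 (adjusted p = 0.742). The dimmer Stard4 probe gave -0.18 with no overlap between groups and did not pass (adjusted p = 0.111). Nr1h2, the widely expressed liver X receptor, gave 262 ± 12.8 and 269 ± 16.9 (adjusted p = 0.783). Abcg1, one of the efflux pumps it controls, lay close to the floor at 60.0 ± 3.57 and 65.4 ± 1.79 (adjusted p = 0.244), and Abca1 was below it throughout.

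Most fatty acid enzymes did not pass the test. Fasn, the fatty acid synthase, gave 5367, 4953 and 4999 on the wild-type arrays and 5104, 5459 and 5546 on the null arrays, which overlapped (0.07, SE 0.08, adjusted p = 0.532). The stearoyl-CoA desaturases Scd1 (2810 ± 244 and 3076 ± 110) and Scd2 (18590 ± 1777 and 17487 ± 1311) gave 0.13 and -0.09, with adjusted p of 0.255 and 0.527. These desaturases are close paralogs, and whether their probes share signal was not tested. Fads1, a desaturase of polyunsaturated fatty acids, read 9306, 8971 and 8797 against 9383, 9126 and 8553, and its means of 9025 ± 259 and 9021 ± 425 were nearly equal (0.00, SE 0.08). Acaca, the acetyl-CoA carboxylase that commits carbon to fatty acids, was dim at 86.5 ± 18.3 and 89.1 ± 17.5 (adjusted p = 0.851). Elovl6, which elongates saturated fatty acids, gave 2012 ± 308 and 1748 ± 84.4 (-0.19, SE 0.10, adjusted p = 0.18) and passed without wild-type replicate 2 (-0.32, adjusted p = 0.015). The dimmer Elovl6 probe gave 0.04 (adjusted p = 0.835).

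Of 11 fatty acid enzymes tested, 3 rose and 1 fell, beside 19.3% and 20.3% of all genes. Elovl5, the elongase of polyunsaturated fatty acids, read 3268, 2781 and 3785 in wild-type cells against 5091, 4446 and 4329 in null cells, a rise of 1.42-fold (log2 fold change 0.50, SE 0.11, adjusted p = 0.0021). Elovl1, the elongase of very long chains, rose 1.22-fold on its brightest probe (1037 ± 49.8 to 1267 ± 72.8, adjusted p = 0.011), with 0.19 and 0.00 on the other probes, which did not pass. Fads2, the desaturase that acts before Fads1, rose 1.26-fold on its brighter probe (728 ± 70.3 to 916 ± 59.9, adjusted p = 0.0097) and gave -0.05 on the other. Neither Elovl1 (adjusted p = 0.058) nor Fads2 (0.053) passed without null replicate 2. Among tested members, protein-coding genes overlap Elovl1 (Cdc20), Tm7sf2 (Vps51), Npc1 (Rmc1) and Acaca (Tada2a and Gm11437) in the genome. The strand each probe reads is not given in the sources used here. Acly, the ATP citrate lyase that supplies cytosolic acetyl-CoA, read 8332, 7306 and 9793 in wild-type cells against 7255, 6192 and 5771 in null cells, a fall of 1.32-fold (-0.40, SE 0.11, adjusted p = 0.012). Acly did not pass without wild-type replicate 3 (-0.29, adjusted p = 0.053) or null replicate 3 (-0.33, adjusted p = 0.056). Acsl4, which activates arachidonate-type fatty acids, gave 517 ± 30.2 and 553 ± 35.6 on its brightest probe (adjusted p = 0.408), but 2 of its other 3 tested probes fell (-0.54 and -0.33).

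**Figure D3:**
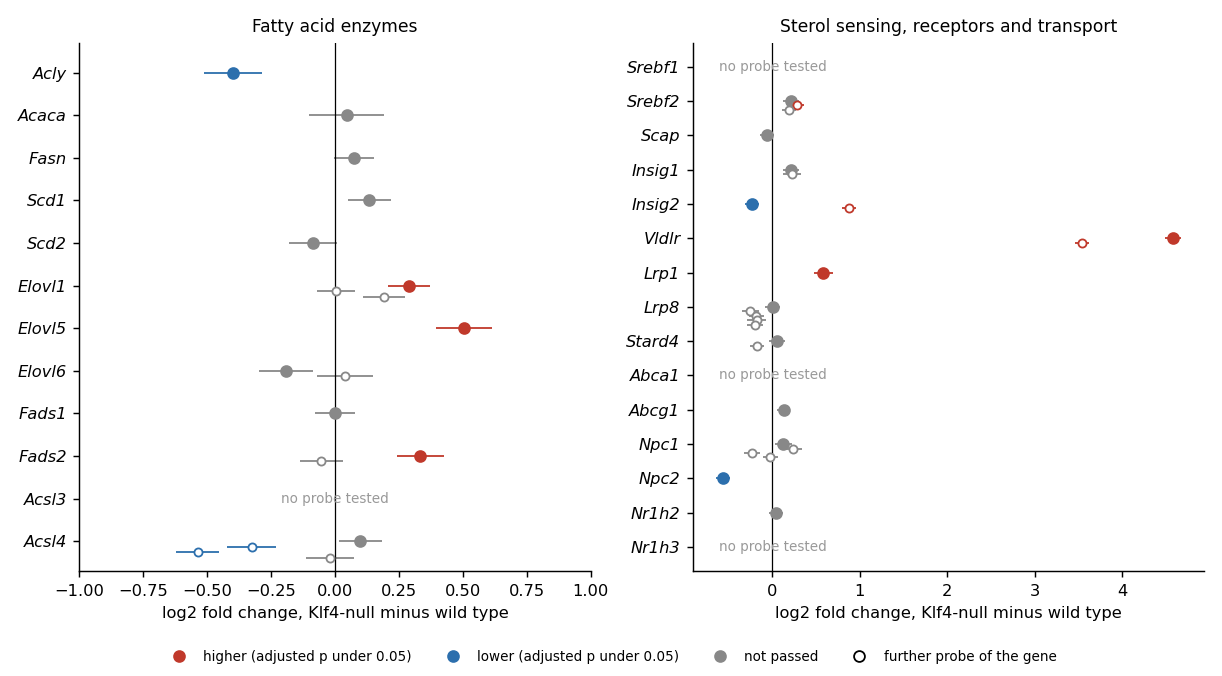
Log2 fold change (Klf4-null minus wild type) of every tested probe of the fatty acid enzymes (left) and of the regulators, receptors and transport genes (right, on a wider axis); bars are the standard error, n = 3 arrays per group, and filled points are the brightest probe of a gene. Most points on the left lie within 0.50 of 0, and Vldlr stands apart on the right at 4.58 and 3.54.

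**Figure D4:**
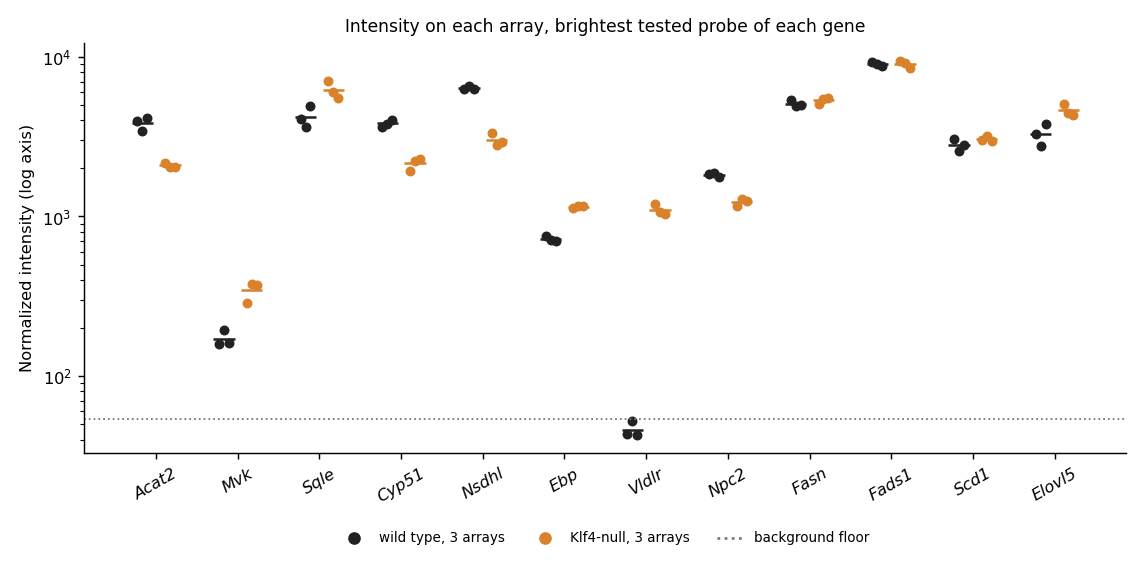
Normalized intensity (log axis) on each array for the brightest tested probe of 12 members, with group means as short lines and the background floor dotted. Wild-type and null arrays are apart for Acat2, Mvk, Cyp51, Nsdhl, Ebp, Vldlr and Npc2, and overlap for Fasn, Fads1 and Scd1. Levels of different probes are not comparable.

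Of 17 members with more than 1 tested probe, 5 had every probe called in the same direction (Sqle, Cyp51, Tm7sf2, Nsdhl and Vldlr), 5 had none called, 6 had some called and some not, and Insig2 had calls in both directions. Over all 66 tested member probes, 13 rose, 18 fell and 35 did not pass, on an array where 38.9% of all 21825 tested probes were called. How often the probes of a gene were called alike over all genes is not given here.

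Within each group, several sterol and fatty acid genes were highest on the same array, a pattern chosen after the values were seen. Sqle, Lss, Sc4mol, Dhcr7, Acat2, Idi1, Hsd17b7, Insig1, Acly, Scd2, Elovl5 and Elovl6 were each highest on wild-type replicate 3 within wild type and on null replicate 1 within null cells. That is 12 of 39 members (30.8%), against 14.9% of all genes tested. The 12 were picked by their highest arrays, so agreement in those was built in. Wild-type replicate 2 was also the lowest wild-type array for 10 of them (25.6% of members, against 9.37% of all genes tested). The lowest null array was replicate 2 for Idi1, Hsd17b7 and Dhcr7 and replicate 3 for the rest. Hsd17b7 was highest by a narrow margin (1493 against 1482 in wild type and 1225 against 1220 in null cells). Lss, for example, read 1728, 1597 and 2279 in wild-type cells against 1776, 1367 and 1345 in null cells, so its highest and lowest wild-type arrays differed by more than its group means. Among the 16 sterol enzymes 7 had this order of highest arrays and among the 11 fatty acid enzymes 4. The order was not shared by Nsdhl, Cyp51, Mvk or Ebp, whose groups lay further apart than their replicates. Groups without overlap also occurred among genes with the order, namely Acat2, Sqle, Hsd17b7, Dhcr7, Acly and Elovl5. How often groups lacked overlap over all genes is not given here, so these names are a description only. Over all probes tested, the deviations of wild-type replicate 3 and null replicate 1 from their group means correlated at 0.27. Those of wild-type replicate 2 and null replicate 3 correlated nearly as much, at 0.26, and the remaining pairs gave -0.26 to 0.07. The labels name no batch, and the source of the shared order was not tested.

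**Figure D5:**
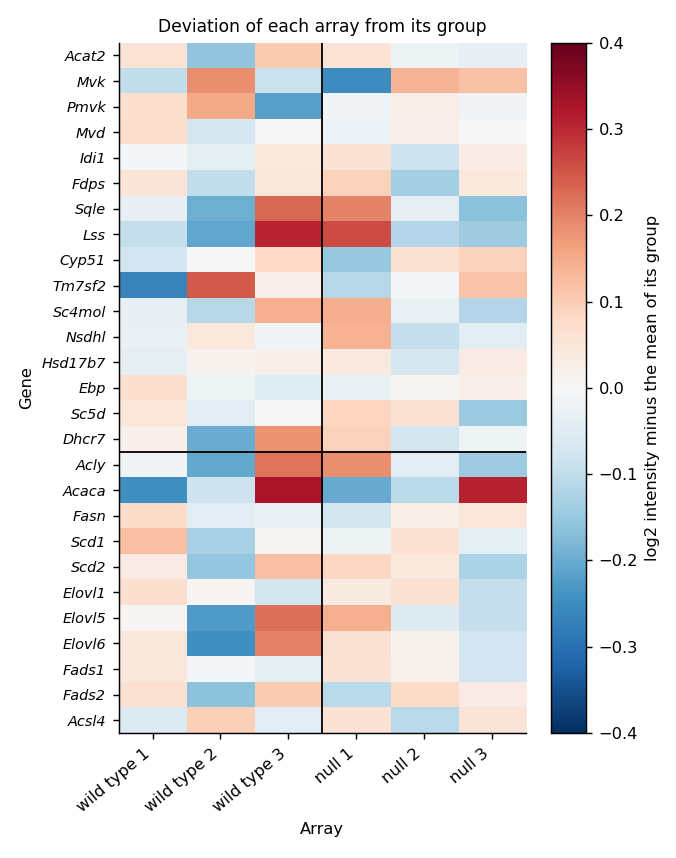
Log2 intensity on each array minus the mean of its group, for the brightest tested probe of each sterol enzyme (above the line) and fatty acid enzyme (below it). Sqle, Lss, Sc4mol, Dhcr7, Acly, Elovl5 and Elovl6 share high values on wild-type replicate 3 and null replicate 1.

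Genes of neighbouring pathways, taken from lists that hold no member, also moved both ways. In fatty acid supply, uptake and storage, 5 of 18 genes tested rose (27.8%) and 5 fell (27.8%), beside 19.3% and 20.3% of all genes, with a median log2 fold change of 0.04. Lpl, the lipoprotein lipase that frees fatty acids from lipoproteins, read 339, 420 and 364 in wild-type cells against 48.7, 51.8 and 50.2 in null cells, below the floor, a fall of at least 6.89-fold. This probe entered the test through the wild-type arrays alone, so a difference was built into its selection. Acss2, which makes cytosolic acetyl-CoA from acetate and is a known SREBP target, fell 3.93-fold from 402 ± 9.52 to 103 ± 8.54 (adjusted p = 2.0e-10). The dimmer Acss2 probe gave -0.09 and did not pass. It lay at the floor in both groups (56.2 ± 5.37 and 52.7 ± 1.55), where a fall could hardly show. Agpat2, an acyltransferase of phospholipid and triglyceride synthesis, rose 5.38-fold from 80.5 ± 15.6 to 430.1 ± 61.5 (adjusted p = 5.4e-09), and Lpin2, a phosphatidate phosphatase, rose 1.66-fold on 1 of its 4 tested probes. In the further sterol transport and oxysterol list, 4 of 13 rose (30.8%) and 4 fell (30.8%), beside 19.3% and 20.3% of all genes (median 0.00). Stard5, a sterol-binding START protein, rose 3.74-fold from 134 ± 13.03 to 501 ± 44.2 (adjusted p = 1.3e-09), and Osbp, an oxysterol-binding protein, rose 2.02-fold, while Soat1, which esterifies cholesterol for storage, fell 1.82-fold on 1 of its 3 tested probes. The transporter Abca7 fell 1.47-fold.

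Of 18 fatty acid oxidation genes tested, 7 fell and 3 rose, beside 20.3% and 19.3% of all genes, and a median of -0.10. Hadh, a dehydrogenase of the oxidation spiral, fell 1.87-fold from 175 ± 7.94 to 93.5 ± 5.80, and Acadl, the long-chain acyl-CoA dehydrogenase, fell 1.69-fold. Cpt1c, a carnitine palmitoyltransferase family member known from neurons, rose 1.54-fold, from 54.4 ± 2.04 near the floor to 83.9 ± 3.75, and the nuclear receptor Ppard rose 1.52-fold. In the isoprenoid branch, which leads from farnesyl diphosphate to ubiquinone, dolichol and prenylated proteins, 4 of 8 fell and 2 rose, again beside 20.3% and 19.3% of all genes (median -0.23). Fntb, the farnesyltransferase subunit, fell 1.74-fold and Pdss2, of the ubiquinone side chain synthase, fell 1.53-fold, while the dolichol kinase Dolk rose 1.28-fold and the prenyl-protein protease Zmpste24 rose 1.26-fold. Among 9 genes of SREBP processing and degradation tested, 22.2% were called, beside 39.6% of all genes. The ubiquitin ligase adaptor Fbxw7 fell 1.23-fold, and 7 of the 9 did not pass.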

How the data were processed

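The authors' deposited intensities are linear, positive and nearly alike in distribution on the 6 Illumina arrays, so they had been normalized between arrays. The sources used here name no scanner software, background step or normalization method. Another deposited table paired probes with symbols, and its 12 columns of per-sample values match no sample's labels and were not used. Here log2 of the intensities was fitted with limma 3.58.1 (lmFit, eBayes) in R 4.3.3, 3 Klf4-null against 3 wild-type arrays, without covariates, 2-sided, with Benjamini-Hochberg adjustment over the 21825 probes tested. The floor on each array was the mode of the log2 values plus the 95th percentile of the mirrored spread below it. At-least folds use the floor for the dim group. A gene was read by its brightest tested probe, and all probes of members are reported. From each neighbouring list the 2 largest called changes in each direction were named, except 1 gene that is not reported here. The members and lists were chosen with earlier results of these data known. The fit was tested on simulated data. If the deposited values still hold background, folds of dim probes are understated, and the number of arrays limits the precision. Promoter windows and current names came from RefSeq (GRCm38.p6), and 1 member (Sc4mol) stood under an older symbol.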

Additional observations from a re-analysis of the deposited data

How the results depend on the processing

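The comparison was refitted under 20 alternatives, 1 of them (subtracting part of the background) added after the data were seen. The counts moved by over 1.5 times with the test against a 1.5-fold change, which called 1766 probes, 2 members higher (Mvk and Vldlr), 2 lower (Acat2 and Nsdhl), 3 sterol enzymes, 0 fatty acid enzymes and 7 genes of the neighbouring lists (0 fatty acid enzymes by this limma test, 4 at an unadjusted p under 0.05 in the limma fit without a minimum change). Averaging the tested probes of a gene left 2 fatty acid enzymes called. Leaving out 1 array at a time gave 7174 to 8248 probes, 7 to 9 members higher, 9 to 12 lower, 11 to 12 sterol enzymes, 2 to 5 fatty acid enzymes and 32 to 35 genes of the neighbouring lists. With the replicate block the counts were 8052 probes, 9 members higher and 10 lower, and Insig2 alone among the members lost its call (same-numbered arrays shared only a number, their deviations correlating at -0.02, 0.05 and -0.22). Of 20 called members, Acat2, Mvk, Nsdhl and Vldlr were called in every alternative run for them, 10 were lost only against 1.5-fold, and 6 (Hsd17b7, Dhcr7, Insig2, Acly, Elovl1 and Fads2) were lost or turned elsewhere. Averaging its probes turned Insig2 to 0.32 (log2). Vldlr was not tested where all 6 arrays had to pass the floor.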
